A study of Mus musculus with 5 samples.

Results

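The 8 genes described here are 7 genes of the mouse LY6 family (Ly6a, Ly6c1, Ly6c2, Ly6d, Ly6e, Ly6g and Ly6i) and Ptprc, the gene of the leukocyte phosphatase CD45. They were taken by name from a table of 34240 features, because antibodies against their products had been used to sort the cells or because they are close relatives of those antigens. The table holds 5 RNA sequencing libraries of BALB/c mice aged 10 to 12 months. Normal myeloid cells positive for Gr1 and Mac1 were sorted from bone marrow (3 libraries). The other 2 libraries came from bone marrow and spleen cells with acute myeloid leukaemia (AML), sorted as positive for Mac, Gr1 and B220. CNTRL-FGFR1, which joins part of a centrosome protein to the kinase FGFR1, had induced this leukaemia. The labels do not say how the fusion was brought into the mice, nor whether each library is a separate animal. Otherwise the p-values describe only sample-to-sample spread, possibly technical. Spleen was a tissue, and B220 a sorting marker, of the AML group alone, so tissue and sort cannot be told apart from group.

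LY6 proteins are small disulfide-rich surface proteins, mostly held in the membrane by a glycosylphosphatidylinositol (GPI) anchor, and in the mouse many of their genes lie side by side in a cluster on chromosome 15. The Gr1 antibody binds Ly6G, which marks neutrophils, and also the Ly6C proteins, which are high on inflammatory monocytes and present on neutrophils and their precursors. CD45 is a transmembrane tyrosine phosphatase of all nucleated blood cells that removes the inhibitory phosphate of SRC-family kinases. Its extracellular part varies by splicing of exons 4, 5 and 6, and B220 is the name of the large form, best known from B cells, whose epitope depends on exon 4.

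Along with the rest of the exons, the coding sequences of Ly6c1 and Ly6c2 bear on how well the table tells these genes apart. Both are 396 bases long in the GENCODE annotation of mm9, made on the C57BL/6J reference genome, and they differ at 9 bases. The first 120 bases of each, read 5′ to 3′ along the gene, hold 6 of these differences, marked by capitals.
Ly6c1: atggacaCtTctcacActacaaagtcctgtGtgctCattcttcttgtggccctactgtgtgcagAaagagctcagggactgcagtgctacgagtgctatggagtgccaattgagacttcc
Ly6c2: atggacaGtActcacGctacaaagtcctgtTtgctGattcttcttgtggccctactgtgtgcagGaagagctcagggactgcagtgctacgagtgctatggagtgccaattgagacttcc
The 2 coding sequences were 97.7% identical and shared an unbroken run of 188 bases, so a short read from that run fits both genes equally well. No other pair came near this. Ly6a and Ly6i were 86.4% identical, with a longest shared run of 80 bases, and Ly6g shared at most 35 bases in a row with either Ly6c gene. Ly6d and Ly6e were the distant members, at 47.1% to 53.8% identity with each other and with the rest. The mice were BALB/c and the reference is C57BL/6J; whether differences between these strains changed the mapping of LY6 reads was not tested, and both groups were of the same strain.

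Ptprc values were likewise limited to the whole gene. Exon 4 (129 bases, chromosome 1, 140019033 to 140019161, mm9, minus strand), on which the B220 epitope depends, is shown in capitals between the ends of exons 3 and 5, as read from the annotated transcript that holds all 3 variable exons.
Ptprc exon 4: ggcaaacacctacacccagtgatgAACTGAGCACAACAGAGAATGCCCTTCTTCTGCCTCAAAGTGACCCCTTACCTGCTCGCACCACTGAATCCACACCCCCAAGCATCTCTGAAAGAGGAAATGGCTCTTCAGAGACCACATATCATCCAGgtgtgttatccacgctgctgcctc
Exons 4, 5 and 6 together made up 417 of the 5664 bases of that transcript, or 7.36%. The transcript without them was 5247 bases long, a ratio of lengths of 1.08. B220 transcripts cannot be told from other CD45 transcripts in these data.

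Values are RPKM (reads per kilobase of exon, scaled by library depth), a unit inferred from the numbers, since no header names it. Depth per library could not be recovered from them. The test took in 10166 genes that reached 1 RPKM in 2 or more libraries. Of these, 3155 (31%) passed the test between groups (limma on log2(RPKM + 1), Benjamini-Hochberg adjusted p under 0.05), 19.3% higher and 11.8% lower in AML cells, with a median difference of 0.12 over all genes tested. The neutrophil genes S100a8 and S100a9 held 28.1% to 37.0% of the RPKM total in normal and 20.8% and 30.1% in AML libraries. With these 2 genes left out of the scaling the median was -0.11, and 47.7% of called genes were higher in AML cells in place of 62.1%. Normal library 3 stood apart from normal libraries 1 and 2 (Pearson r over genes 0.924 and 0.944, against 0.988 between those).

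Of the 8 genes, Ly6e rose in AML cells, Ly6g, Ptprc and Ly6d fell, Ly6a, Ly6c1 and Ly6c2 did not pass the test, and Ly6i lay under the filter. Thus 4 of the 7 genes tested passed, against 31% of all genes. Ly6d entered the test only through the normal libraries and so had to differ, so this share is a description. Without a filter all 8 were tested and the same 4 passed, against 16.4% of 17466 genes (10.2% higher and 6.16% lower). The groups did not overlap for 6 of the 8 genes, against 57% of genes tested. All 4 calls were lost when either AML library was left out, where the remaining one is assumed to vary like the normal libraries (limma, adjusted p between 0.057 and 0.14), and no direction turned.

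**Figure D1:**
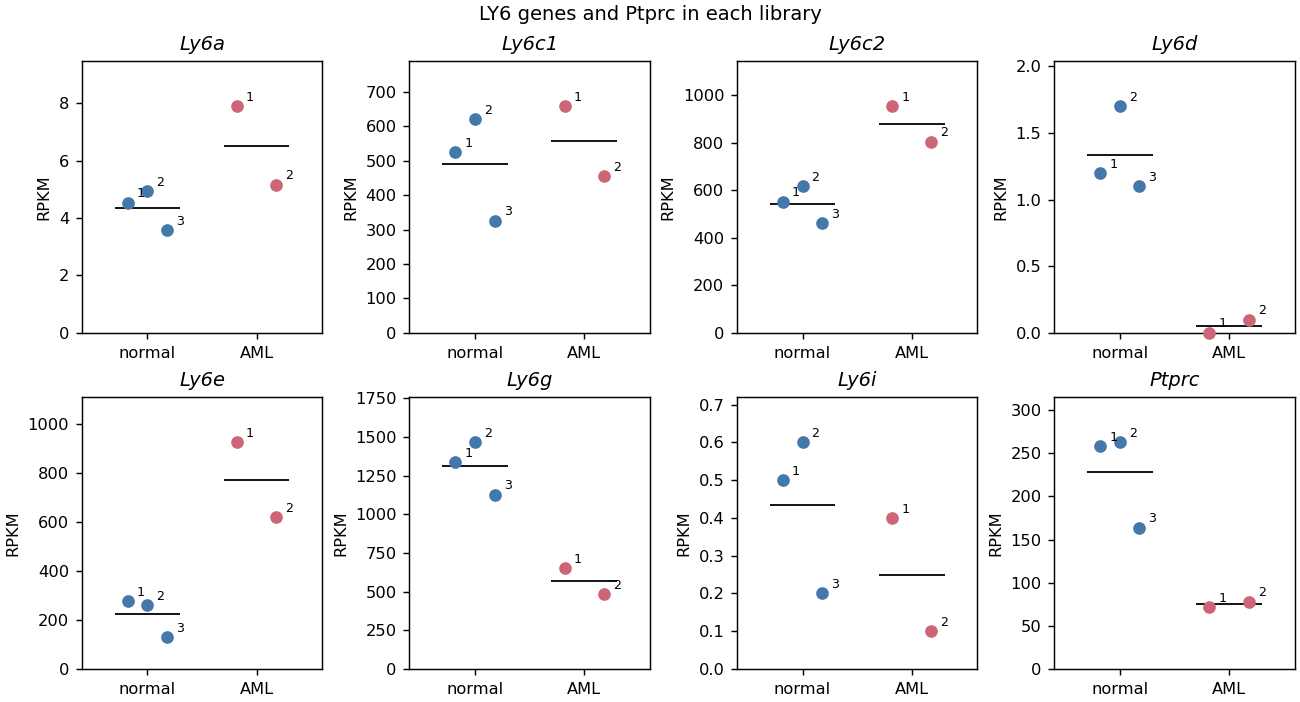
RPKM of the 8 genes in each library; the y axis of each panel starts at 0, points are single libraries numbered within their group (3 normal in blue, 2 AML in red), and lines are group means. Ly6e lies above and Ly6g, Ptprc and Ly6d lie below the normal range in both AML libraries, while the groups overlap for Ly6c1 and Ly6i.

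Ly6g, the gene of the neutrophil antigen bound by the Gr1 antibody (ENSMUSG00000022582, chromosome 15, 74987123 to 74989169), was the highest of the 8 genes in normal cells. Its level was 1336.4, 1464.3 and 1126.0 RPKM in normal libraries 1 to 3 and 650.4 and 481.7 RPKM in AML libraries 1 and 2. Both AML libraries lay below every normal library. The means were 1309 ± 171 RPKM (SD, n = 3) and 566 ± 119 RPKM (SD, n = 2), and the difference of -1.22 on the log2(RPKM + 1) scale (SE 0.29) passed the test (limma, Benjamini-Hochberg adjusted p = 0.02). Leaving out normal library 1 (adjusted p = 0.063), normal library 2 (0.11), AML library 1 (0.057) or AML library 2 (0.14) ended this call with limma. In bulk RNA, fewer cells that express a gene and less of its RNA per cell cannot be told apart.

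Ly6c1 and Ly6c2, the neighbouring genes of the 2 Ly6C proteins, were high in both groups and did not pass the test. Ly6c1 (ENSMUSG00000079018, chromosome 15, 74875447 to 74879260) stood at 525.6, 620.7 and 325.7 RPKM in the normal libraries and at 658.1 and 456.0 RPKM in the AML libraries. These ranges overlapped, and the log2 difference of 0.21 had a 95% interval from -0.64 to 1.06 (limma, adjusted p = 0.68). Its sign turned with S100a8 and S100a9 left out of the scaling (-0.045), under quantile normalization (-0.12) and without normal library 3 (-0.060) or AML library 1 (-0.055). Ly6c2 (ENSMUSG00000022584, chromosome 15, 74938590 to 74942114) stood at 552.68, 618.26 and 460.88 RPKM in normal cells. In AML cells it stood at 953.49 and 804.81 RPKM, above every normal library, as did 34.8% of all genes tested. Its log2 difference of 0.70 (95% interval 0.05 to 1.34) missed the threshold after adjustment (limma, adjusted p = 0.093) and shrank to 0.29 under quantile normalization.

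Because reads of these 2 genes can be exchanged, they were also tested as one sum. The sum of Ly6c1 and Ly6c2 was 1078, 1239 and 787 RPKM in normal libraries and 1612 and 1261 RPKM in AML libraries. The AML libraries lay above the normal ones, AML library 2 by a small margin over normal library 2. The log2 difference of 0.49 (95% interval -0.26 to 1.24) did not pass (limma, adjusted p = 0.27). Within a library the ratio of Ly6c2 to Ly6c1 was 1.05, 0.996 and 1.42 in normal cells and 1.45 and 1.76 in AML cells, so normal library 3 was closer to AML library 1 than to the other normal libraries.

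At the level of RNA, the make-up of the Gr1 genes differed between the groups more than their sum. Surface protein was not measured, and both groups had been sorted on Gr1. Ly6g, Ly6c1 and Ly6c2 summed to 2415, 2703 and 1913 RPKM in normal and 2262 and 1743 RPKM in AML libraries. These ranges overlapped, and the log2 difference of -0.22 (95% interval -0.96 to 0.51) did not pass (limma, adjusted p = 0.60). Ly6g made up 55.3%, 54.2% and 58.9% of that sum in normal libraries and 28.8% and 27.6% in AML libraries. The ratio of Ly6g to Ly6c1 plus Ly6c2 within a library, which does not depend on scaling between libraries, was 1.24, 1.18 and 1.43 in normal and 0.404 and 0.382 in AML cells. The mean log2 ratio was 0.36 in normal and -1.35 in AML cells, a difference of -1.70 (two-sided exact permutation test, p = 0.2, the smallest value that 3 against 2 libraries allow). Leaving out 1 library gave differences from -1.76 to -1.62. The annotation gives Ly6g 336 bases of exon, which is its coding sequence alone, against 840 for Ly6c1 and 796 for Ly6c2. If RPKM rests on such a length, the share of Ly6g within a library can be off in all 5 libraries. The direction is not known, because how reads outside the coding sequence were counted is not given. The difference of the log2 ratios between groups does not depend on that length.

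**Figure D2:**
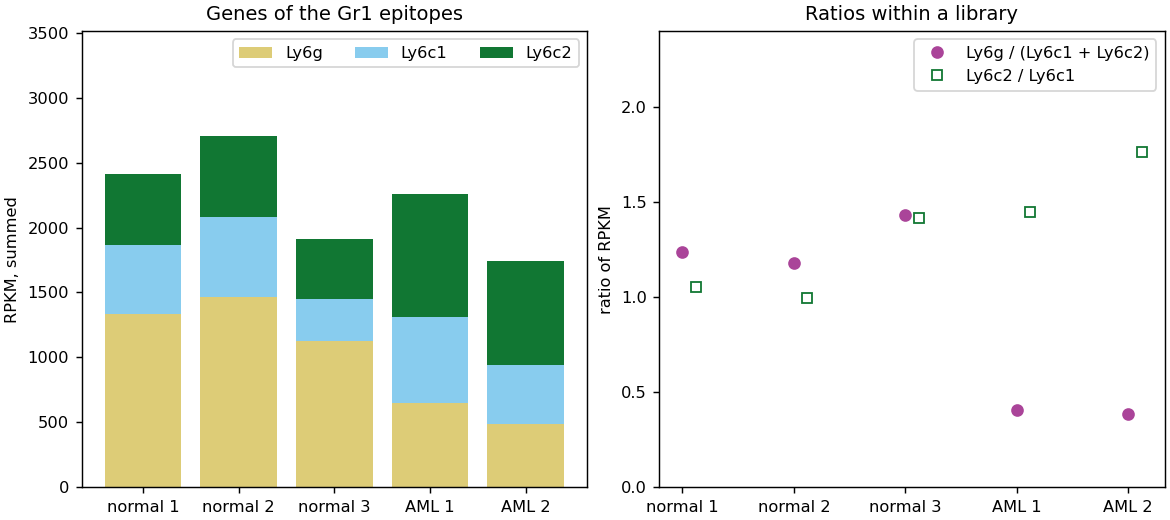
Left, RPKM of Ly6g, Ly6c1 and Ly6c2 stacked for each of the 5 libraries (y axis from 0); right, the ratio of Ly6g to Ly6c1 plus Ly6c2 (circles) and of Ly6c2 to Ly6c1 (open squares) within each library. Total heights of 1743 and 2262 in AML cells fall within or close to the normal range of 1913 to 2703, while the circles drop from 1.18 or more to 0.404 or less.

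Ly6e was the gene of the 8 that rose. It encodes a broadly expressed LY6 protein of immature T cells and many other tissues, known also as a receptor-like factor in virus entry and as a gene that interferon induces (ENSMUSG00000022587, chromosome 15, 74785481 to 74790335). It stood at 276.10, 260.78 and 130.42 RPKM in normal libraries and at 924.99 and 619.76 RPKM in AML libraries. Both AML libraries lay far above the highest normal one. The means of 222 ± 80.1 RPKM (SD, n = 3) and 772 ± 216 RPKM (SD, n = 2) gave a 3.47-fold ratio, with a log2 difference of 1.84 (SE 0.40, limma, adjusted p = 0.015). The call was lost without AML library 1 (log2 difference 1.55, limma adjusted p = 0.096) or AML library 2 (2.13, adjusted p = 0.068). Without normal libraries 1 and 2 it passed.

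Ly6a, the gene of the stem cell antigen Sca-1, was low in all libraries next to Ly6e and the Ly6c genes. Sca-1 is used to mark haematopoietic stem cells in many strains, and BALB/c mice are known to carry an allele with weak blood cell expression. Ly6a (ENSMUSG00000075602, chromosome 15, 74825308 to 74828064) stood at 4.53, 4.94 and 3.57 RPKM in normal and 7.89 and 5.16 RPKM in AML libraries. AML library 2 exceeded the highest normal library by little, and the log2 difference of 0.48 (95% interval -0.13 to 1.09) did not pass (limma, adjusted p = 0.20). Ly6i, a close relative of Ly6a (ENSMUSG00000022586, chromosome 15, 74810242 to 74813860), was listed at 0.5, 0.6 and 0.2 RPKM in normal and 0.4 and 0.1 RPKM in AML libraries. These values are deposited with 1 decimal and overlap between groups; without a filter the log2 difference was -0.20 (limma, adjusted p = 0.52).

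Ly6d fell from a low level to the limit of the table. Ly6D marks early B cell progenitors and plasmacytoid dendritic cell precursors. The gene (ENSMUSG00000034634, chromosome 15, 74592486 to 74593997) was listed at 1.2, 1.7 and 1.1 RPKM in normal and 0.0 and 0.1 RPKM in AML libraries, with 1 decimal. The 2 groups did not overlap, as for 22.1% of all genes in that direction, and the log2(RPKM + 1) difference was -1.14 (SE 0.19, limma, adjusted p = 0.0059). No ratio is given, because one AML library is listed at 0. The call was lost without AML library 1 (limma, adjusted p = 0.067) or AML library 2 (0.068).

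Markers of the cell types that carry Ly6D were low in both groups. The table held 17 B lineage genes, of which 6 were tested; Vpreb3 and Cd72 fell, both calls being lost without either AML library (limma, adjusted p up to 0.11), and none rose. Both reached the filter only through the normal libraries, so no other direction was open to them. Of the 6 tested genes 33.3% were called, all lower, against 31% of all genes called and 11.8% lower. The 17 genes summed to between 18.5 and 30.8 RPKM in normal and between 13.5 and 16.3 RPKM in AML libraries. Cd79a, a signalling chain of the B cell receptor, was at 4.4, 6.2 and 3.7 RPKM in normal and 2.8 and 3.8 RPKM in AML libraries and did not pass (limma, adjusted p = 0.27). Rag1 and Rag2, the recombinase genes, were listed at 0 in both AML libraries. Of 10 plasmacytoid dendritic cell genes 5 were tested, and Irf8 and Spib fell, the call of Spib being lost without either AML library or normal library 2 (limma, adjusted p up to 0.13). Irf8 and Spib, too, reached the filter only through the normal libraries. Of the 5 genes 40.0% were called, all lower, against the same shares of all genes. That list summed to between 28.1 and 38.4 RPKM in normal and 20.5 and 21.1 RPKM in AML cells, and Siglech, Ccr9, Klk1 and Pacsin1 were listed at 0 in both AML libraries. The part of such cells in the fall of Ly6d was not tested.

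Ptprc fell in AML cells at the level of the whole gene, although its B220 form was a sorting marker of these cells. Ptprc (ENSMUSG00000026395, chromosome 1, 139959438 to 140071882) stood at 258.2, 262.5 and 163.6 RPKM in normal and 71.7 and 77.7 RPKM in AML libraries. Both AML libraries lay below the lowest normal library and close to each other. The log2 difference was -1.57 (SE 0.29, 95% interval -2.25 to -0.88, limma, adjusted p = 0.0087). The ratio of means was 3.05-fold. The call was lost without AML library 1 (limma, adjusted p = 0.062), AML library 2 (0.069), or normal libraries 1 and 2 together (0.085, log2 difference -1.12).

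The other antigen of the sort, Mac1, is a pair of integrin chains. Itgam, its alpha chain, fell by 1.23 on the log2 scale (limma, adjusted p = 0.02), a call that ended on leaving out AML library 2, normal library 1 or normal library 2 (up to 0.15). Itgb2, the beta chain shared by several leukocyte integrins, stood at 620.45, 516.37 and 454.85 RPKM in normal and 515.28 and 415.33 RPKM in AML libraries and did not pass (limma, adjusted p = 0.63). The genes of all antigens named in the sort were thus transcribed in all 5 libraries.

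Several genes that act with CD45 fell along with Ptprc. Of 14 tested kinases and binding partners 6 fell and 1 rose, against 11.8% lower and 19.3% higher over all genes, with a median log2 difference of -0.60 against 0.12. Among the SRC-family kinases of myeloid cells, which CD45 acts on, Lyn fell by 1.66 (limma, adjusted p = 0.0038) and Fgr by 1.43 (0.005) on the log2 scale. Lyn stood at 121.6, 115.9 and 96.1 RPKM in normal and 38.6 and 30.4 RPKM in AML libraries. Fyn, at 2.04 to 2.44 RPKM in normal and 2.68 and 3.68 RPKM in AML libraries, did not pass, and Lck stayed under the filter. Lgals3, galectin 3, a lectin that binds glycans of CD45 and is abundant in macrophages, fell by 3.80 (adjusted p = 0.00071), and Pag1, the membrane adaptor that recruits the inhibitory kinase CSK, fell by 1.91 (adjusted p = 0.019). Skap2, an adaptor of SRC-family signalling, also fell.

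Ptprcap, which encodes a small protein that binds CD45 in lymphocytes, was the partner gene that rose. It stood at 4.83, 4.75 and 7.16 RPKM in normal and 13.30 and 15.98 RPKM in AML libraries (log2 difference 1.26, SE 0.25, limma, adjusted p = 0.011). The ratio of Ptprc to Ptprcap within a library was therefore 53.5, 55.3 and 22.8 in normal and 5.39 and 4.86 in AML cells. Ptprcap lost its call on leaving out either AML library, normal library 2, or normal libraries 1 and 2 together. Calls were lost of Pag1 without either AML library or normal library 2 (up to 0.15), of Skap2 without the same libraries (up to 0.15), and of Lyn (0.051) and Fgr (0.055) without AML library 2. With 1 library left out, between 1 and 7 of these genes fell and between 0 and 2 rose.

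Monocyte genes moved with these kinases. Of 13 tested monocyte and macrophage markers 12 fell, against 11.8% of all genes; Cx3cr1 and Klf4 among them reached the filter only through the normal libraries. Their summed level was 924 to 1420 RPKM in normal and 76.5 to 96.5 RPKM in AML libraries. Ccr2, the chemokine receptor of Ly6C-high monocytes, stood at 194.2, 154.0 and 162.4 RPKM in normal and 8.6 and 9.8 RPKM in AML libraries. In the same libraries Ly6c2 was not lower. T and NK cell markers summed to 60.3 to 67.1 RPKM in normal and 592 to 636 RPKM in AML libraries, where 7 of 9 tested genes rose, among them Cd3e, Cd3g and Nkg7, against 19.3% of all genes. Of these 7, Cd3e, Lat, Thy1 and Tcf7 reached the filter only through the AML libraries and could be called in no other direction. Cd3d, the gene of another chain of the same CD3 complex, instead fell, from 42.0, 45.5 and 38.4 to 16.5 and 17.2 RPKM (limma, adjusted p = 0.0064; 0.059 without AML library 2). Of the AML sums, Nkg7 held 272.44 and 232.19 RPKM and Cd3e 232.97 and 205.32 RPKM. Cd247 did not pass (limma, adjusted p = 0.34). Cd2, Lck and Cd5 lay under the filter, at 0.1 to 0.58 RPKM in AML libraries, each within its range in normal libraries. With 1 library left out, 3 to 7 genes of that list rose. Their part in the values of Ly6e, Ptprc and Ptprcap was not tested.

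Of 12 other tyrosine phosphatases tested, Ptpn7 rose, Ptpro and Ptpn1 fell, and 9 did not pass (median -0.24). The 25.0% called was near the 31% of all genes. Ptpn7, a phosphatase of MAP kinases in blood cells, stood at 35.27, 32.63 and 41.16 RPKM in normal and 86.75 and 113.59 RPKM in AML libraries (log2 difference 1.43, SE 0.25, limma, adjusted p = 0.0066; 0.07 without AML library 2). Ptpro, a receptor-type phosphatase, stood at 7.0, 7.0 and 3.7 RPKM in normal and 0.4 and 0.7 RPKM in AML libraries (-2.12, SE 0.30, adjusted p = 0.0032); it passed the filter only through the normal group. Ptpn6, the phosphatase SHP-1 that restrains cytokine signals, was at 242.2 to 333.3 RPKM in normal and 201.9 and 215.8 RPKM in AML libraries and did not pass (adjusted p = 0.23). The call of Ptpn1 was lost without any library but normal library 3 (limma, adjusted p up to 0.27).

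Among factors that act on the variable exons of Ptprc, 1 of 13 tested rose and none fell (median 0.22), against 31% of all genes called. Under upper quartile scaling and under quantile normalization none rose and 1 fell, and with S100a8 and S100a9 left out none passed. The gene that rose with values as deposited was Srsf7, at 19.01, 24.96 and 29.22 RPKM in normal and 39.62 and 51.52 RPKM in AML libraries (log2 difference 0.88, SE 0.27, limma, adjusted p = 0.046). That call was lost without any library but normal library 3 (up to 0.26) and under all 3 other scalings (up to 0.43). Hnrpll, the factor best known for skipping these exons in lymphocytes, stood at 20.03, 20.93 and 20.56 RPKM in normal and 22.52 and 28.04 RPKM in AML libraries and did not pass (log2 difference 0.28, adjusted p = 0.35). Ptprc exon use itself was not measured.

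**Figure D3:**
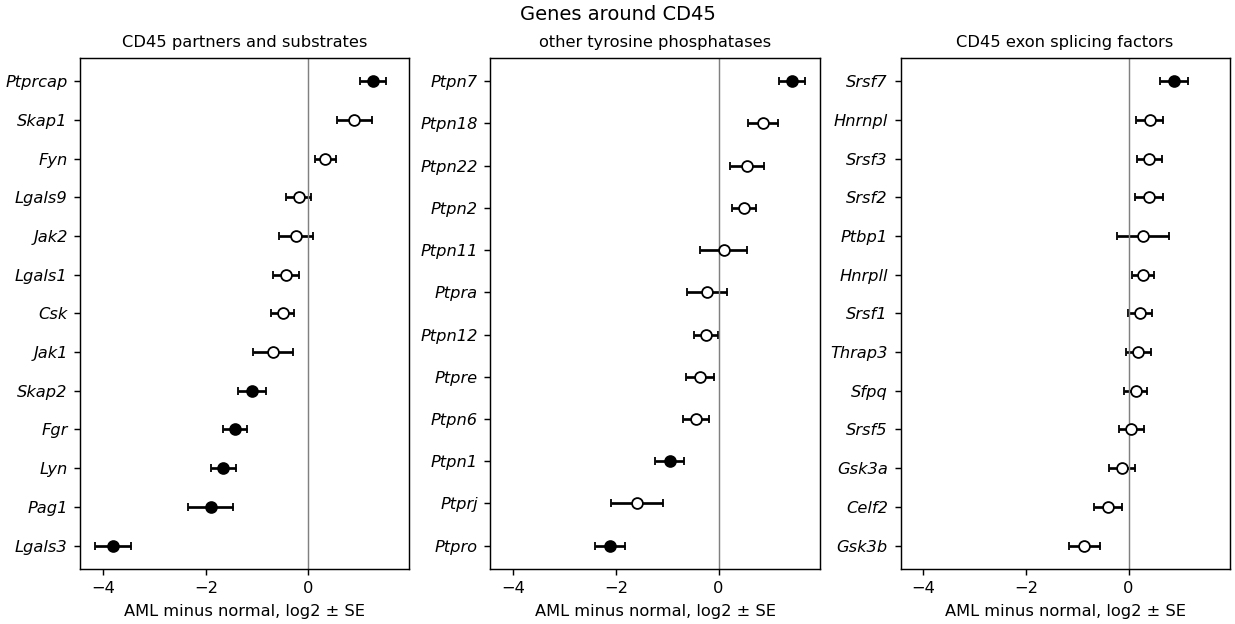
Difference between AML and normal cells on the log2(RPKM + 1) scale, with its SE, for tested genes of 3 lists around CD45; filled points passed the test (limma, adjusted p under 0.05). Left, 13 of the 14 tested partners and substrates, from Lgals3 (-3.80) to Ptprcap (1.26); middle, other tyrosine phosphatases from Ptpro (-2.12) to Ptpn7 (1.43); right, splicing factors, of which Srsf7 (0.88) passed.

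Outside the 7 LY6 genes, most of the wider LY6 and uPAR domain family was low in both groups. The table held 24 further family genes, of which 21 lay under the filter, among them 6 listed at 0 in every library, and 3 were tested. Of these 3, 2 fell, against 11.8% of all genes. Plaur, the urokinase receptor of migrating leukocytes, fell from 116.3, 149.7 and 207.7 RPKM in normal to 58.2 and 51.9 RPKM in AML libraries (log2 difference -1.47, SE 0.30, limma, adjusted p = 0.012). Ly6g5b, which lies outside the chromosome 15 cluster, fell by 0.88 (adjusted p = 0.04). Cd177, a neutrophil surface protein, stood at 1042.4, 873.8 and 1142.8 RPKM in normal and 714.1 and 431.7 RPKM in AML libraries and did not pass (log2 difference -0.87, adjusted p = 0.08), but passed under quantile normalization and with S100a8 and S100a9 left out of the scaling. Plaur lost its call without either AML library or normal library 2 (limma, adjusted p up to 0.099), and Ly6g5b without any library but normal library 3 (up to 0.19).

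Among 25 tested genes that build the GPI anchor of LY6 proteins 3 rose, none fell and 22 did not pass, against 19.3% higher and 11.8% lower over all genes. Their median log2 difference was 0.12, the same as over all genes. Gpaa1, a subunit of the transamidase that attaches the anchor, rose from 9.02, 10.10 and 24.43 RPKM to 44.00 and 53.73 RPKM (log2 difference 1.81, SE 0.42, limma, adjusted p = 0.019). Normal library 3 lay between the other normal libraries and the AML libraries. Pigo and Pigp rose by 0.82 and 0.91 with adjusted p of 0.044 and 0.047 (limma), and Pigp reached the filter only through the AML libraries. Calls of Gpaa1 (up to 0.14), Pigo (up to 0.19) and Pigp (up to 0.32) were each lost without 3 or more of the 5 libraries, and those of Pigo and Pigp also under upper quartile scaling and with S100a8 and S100a9 left out. Leaving out 1 library gave from 0 to 6 higher genes, and up to 2 lower, the 6 and the 2 without normal library 3.

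The LY6 cluster held genes called in both directions. The stretch from Psca to Gpihbp1 (chromosome 15, 74545269 to 75428642, mm9) held 25 genes of the table, of which 17 lay under the filter. Of the 8 tested, 2 rose, 2 fell and 4 did not pass, so that 4 of 8 were called against 31% of all genes. Among these 4, Ly6d, Ly6e and Ly6g are members already counted above. Ly6d entered the test only through the normal libraries, so this share is a description. Ly6e and Ly6g, the risen and the fallen gene at high level, lie within a span of 203.7 kb, with Ly6i, Ly6a, Ly6c1 and Ly6c2 between them. Ly6c2, which did not pass, and Ly6g, 45 kb away, had log2 differences of 0.70 and -1.22. The other gene that rose was 9030619P08Rik, singled out after its values were seen. It stood at 1.79, 2.81 and 1.44 RPKM in normal and 7.43 and 7.61 RPKM in AML libraries (log2 difference 1.53, SE 0.25, limma, adjusted p = 0.0059; 0.06 without AML library 2).

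**Figure D4:**
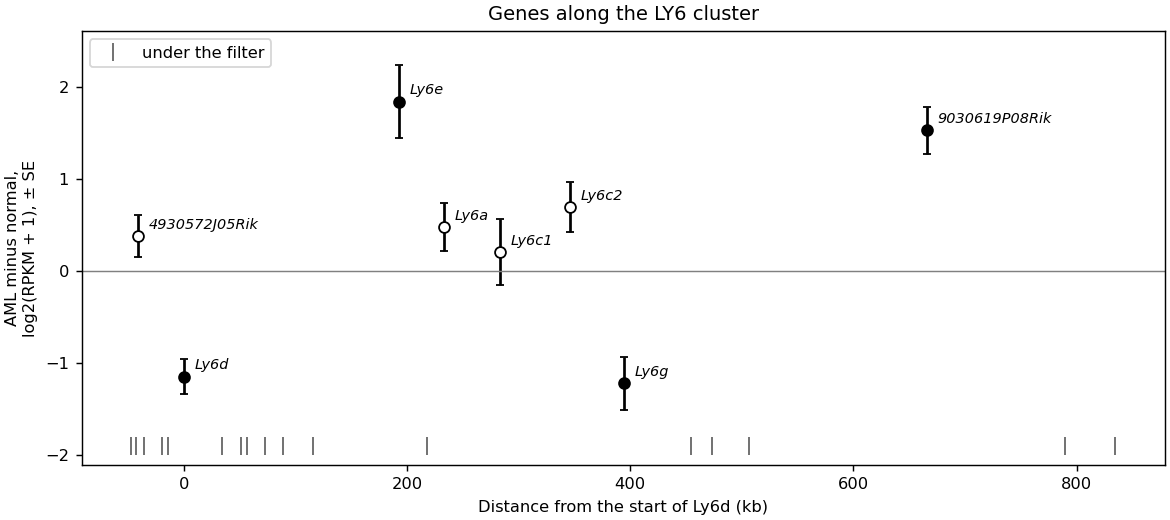
Difference between AML and normal cells (log2(RPKM + 1), with SE) of the 8 tested genes of the LY6 cluster, against the distance of each gene from the start of Ly6d in kb; filled points passed the test, and ticks at the bottom are the 17 genes under the filter. Ly6e (1.84) and 9030619P08Rik (1.53) lie above and Ly6d (-1.14) and Ly6g (-1.22) below 0, with Ly6a, Ly6c1, Ly6c2 and 4930572J05Rik, which did not pass, between them.

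The order of levels among the 8 genes changed from one group to the other. RPKM divides by exon lengths from an annotation that no source here names, so levels of different genes compare only as far as that length is right. In normal cells the order of mean RPKM was Ly6g, Ly6c2, Ly6c1, Ptprc, Ly6e, Ly6a, Ly6d and Ly6i, and the library ranges of Ly6c2 and Ly6c1 and of Ptprc and Ly6e overlapped. In AML cells it was Ly6c2, Ly6e, Ly6g, Ly6c1, Ptprc, Ly6a, Ly6i and Ly6d. There the ranges of Ly6c2 and Ly6e, of Ly6e and Ly6g, and of Ly6g and Ly6c1 overlapped, as did those of Ly6i and Ly6d. Averaged over libraries, Ly6g, Ly6c2, Ly6c1 and Ly6e each exceeded at least 99.1% of tested genes, Ptprc 97.4% and Ly6a 32.4%.

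Libraries of one group also differed in a shared way. Normal library 3 held the lowest normal value of all 8 genes, with deposited values as with S100a8 and S100a9 left out of the scaling; it was lowest for 47.4% of all tested genes (57.3% under that scaling). Of the 8 genes 6 were higher in AML library 1 than in AML library 2, all but Ly6d and Ptprc, as were 59.3% of tested genes. Ly6e and Ptprc, which differ in direction between the groups, were thus both lowest of the normal cells in normal library 3, which lay toward the AML libraries for Ptprc and away from them for Ly6e.

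**Figure D5:**
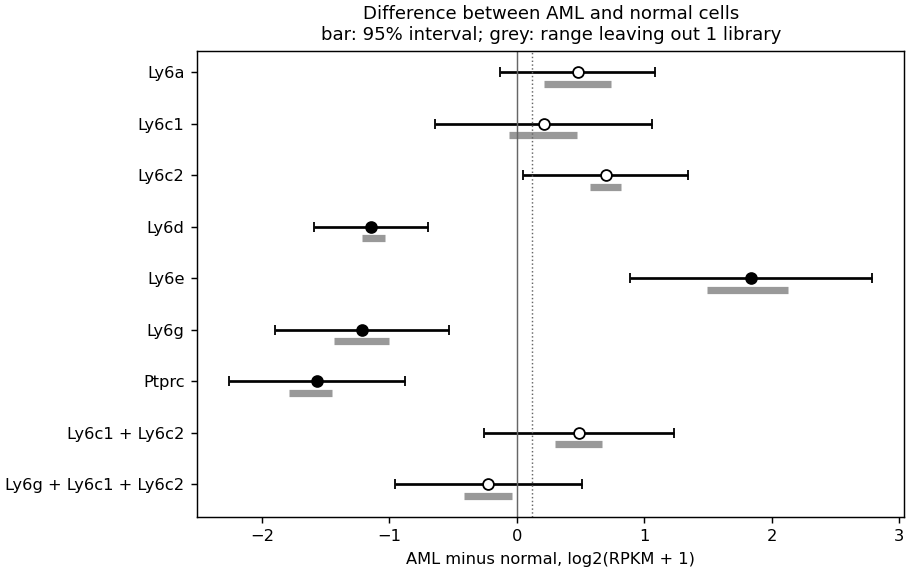
Difference between AML and normal cells on the log2(RPKM + 1) scale for the 7 tested genes and 2 sums; points with black bars are estimates with 95% intervals (filled where limma's adjusted p is under 0.05), grey bars span the values with 1 library left out, and the dotted line is the median of all tested genes (0.12). Ly6e lies at 1.84 and Ly6d, Ly6g and Ptprc between -1.14 and -1.57, while the interval of Ly6c2 (0.05 to 1.34) ends just above 0 without passing after adjustment.

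For each tested member the genes with the most similar profile were sought, by the root mean square distance between log2(RPKM + 1) profiles over the 5 libraries, each centred on its own mean. For Ly6g these were Asb7 (0.05) and Gpsm2 (0.06), and for Ly6e Lair1 (0.08), Mcm7 (0.13) and Mtss1 (0.14). Ptprc was nearest to 2410131K14Rik (0.05), Sema4f (0.05) and Mpzl1 (0.07). Ly6d was nearest to Myl2 (0.06), Vpreb3 (0.08) and Rfk (0.08). None of the genes named here is another of the 8 genes. Lair1, an inhibitory collagen receptor of leukocytes, stood at 9.0, 9.66 and 4.46 RPKM in normal and 37.90 and 23.37 RPKM in AML libraries. It was chosen for its nearness to Ly6e over these same 5 libraries, so a like pattern follows from the choice.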

How the data were processed

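Total RNA of sorted cells was sequenced after TruSeq library preparation, per the labels' protocols. The authors' deposited table has 1 column per library, matched to its sample by title, and no column of another sample. Its values are taken to be RPKM made by the authors, because values times exon length summed to between 1059377 and 1124787 in every library over 24904 features of known length. Reads were placed on mm9, as the submitters' processing notes list. The aligner, counter and gene models are not given. A search for the RPKM that 1 read is worth, over low single-exon genes, made at best 28.0% to 52.4% of values whole within rounding (15.7% to 21.3% by chance), so depth is unknown.

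Genes at 1 RPKM or more in at least 2 libraries were compared on log2(RPKM + 1), which understates changes of low genes, with limma 3.58.1 in R 4.3.3 (variance trend, robust, two-sided). On simulated data with 200 of 10166 genes changed, the test recovered 0% of log2 changes of 1, 67% of 2 and 90% of 3. Those genes were drawn from the higher levels only, and their share was far below the 31% called here. These rates therefore need not hold for the real data. Mean, SD and ratios are of RPKM. The members, lists and tests were chosen with earlier results of these data known. Named genes are the members, the 3 called genes of each list with the largest change (or the highest gene where none was called) and the 3 nearest profiles; further genes were chosen after their values were seen, and 3 genes are not reported here by name. Alternatives were other scalings, filters, pseudocount, variance model, rounding and libraries left out. Positions and sequences are from GENCODE M1 on mm9.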

Additional observations from a re-analysis of the deposited data

How the results depend on the processing

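Directions and calls of Ly6d, Ly6e, Ly6g and Ptprc held under upper quartile scaling, quantile normalization, scaling without S100a8 and S100a9, no filter, a pseudocount of 0.1, no variance trend and rounding to 1 decimal; with a filter at 5 RPKM Ly6d was not tested and the other 3 held. Leaving out 1 library gave log2 differences of -1.22 to -1.04 for Ly6d, 1.49 to 2.13 for Ly6e, -1.43 to -0.999 for Ly6g, -1.79 to -1.45 for Ptprc and -0.060 to 0.47 for Ly6c1 (-0.055 without AML library 1), and 326 to 2757 higher and 348 to 2142 lower genes overall; fewer libraries leave the test less to estimate the spread from. With normal library 3 as the lone normal sample, assumed to vary like the AML libraries, 864 genes rose and 471 fell, Ly6g was at -1.01 and Ptprc at -1.12 (neither passed), the Gr1 sum at 0.054, Ly6i at 0.048, the log2 ratio of Ly6g to Ly6c1 plus Ly6c2 at -1.87, Itgb2 at 0.024 and Hba-a1, the highest of 8 erythroid genes of which none passed, at 0.24; Ly6d was not tested there. With all 5 libraries no erythroid gene passed, but without normal library 3 all 8 were called lower in AML cells (limma). Hba-a1 stood at 1332, 855.9 and 87.4 RPKM in normal libraries 1 to 3 and at 97.7 and 109.5 RPKM in AML libraries. For this gene normal library 3 thus lay near the AML libraries and far below normal libraries 1 and 2. Scaling without S100a8 and S100a9 gave 1251 higher genes and -0.045 for Ly6c1, and quantile normalization gave -0.12 for Ly6c1. The cause of these shifts was not tested. A pseudocount of 0.1 gave -0.66 for Ly6i and -3.32 for Ly6d (-1.14 as reported). A smaller pseudocount stretches log2 differences between values as low as those of these 2 genes. Ly6i, under the filter, has no value under upper quartile scaling or quantile normalization. No paired analysis was possible because the labels give no replicate numbers that pair normal with AML libraries.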

Other observations

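Interferon-induced genes are a group to which Ly6a, Ly6e and the Ly6c genes belong in many cells. Of 22 tested genes 1 rose, 4 fell and 17 did not pass, with a median log2 difference of -0.39 against 0.12 over all genes. The 22.7% called was near the 31% of all genes. Igtp, an interferon-induced GTPase, stood at 11.04, 11.04 and 8.13 RPKM in normal and 25.24 and 37.34 RPKM in AML libraries (log2 difference 1.53, SE 0.27, limma, Benjamini-Hochberg adjusted p = 0.0071; 0.072 without AML library 2). Trim30 fell by 2.29 (adjusted p = 0.00072) and Gbp2 by 1.14 (adjusted p = 0.026), the latter lost without any library but normal library 3 (up to 0.19), with no filter and without normal libraries 1 and 2. Irf9 and Oas1a also fell, calls lost without any library but normal library 3 (limma, adjusted p up to 0.15). Without normal library 3, 9 genes of the list fell and 1 rose; without normal libraries 1 and 2, 1 fell and 3 rose.

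Part of the neutrophil and progenitor markers differed between the groups, as Ly6g did, and part did not. Against 11.8% lower and 19.3% higher over all genes, 6 of 12 neutrophil genes fell and 1, Cebpe, rose (limma, adjusted p = 0.017, up to 0.11 without normal library 2 or either AML library). S100a8, S100a9, Camp, Ngp and Lcn2 did not pass (limma, adjusted p from 0.13 to 0.78). Mmp8, neutrophil collagenase, stood at 1345.6, 1410.5 and 1585.7 RPKM in normal and 177.0 and 245.7 RPKM in AML libraries. Of 7 tested progenitor genes 5 rose, against 19.3% of all genes, and Cd34 fell, which had reached the filter only through normal libraries 1 and 2. Gata2, Meis1, Hoxa9 and Mecom lay under the filter, at up to 0.9 RPKM in normal and up to 0.1 RPKM in AML libraries. With 1 library left out, 4 to 6 neutrophil genes fell and 2 to 5 progenitor genes rose. The part of these markers in the fall of Ly6g was not tested.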
